A study of Homo sapiens with 34 samples.

Results

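The genes described are 10 enzymes of glycan synthesis and glycoprotein turnover, taken as a set of known or proposed androgen-controlled glycosylation genes. The set was chosen with earlier results of these data known, so its counts are not an independent check. The genes are ST6GALNAC1, ST6GAL1, GCNT1, UAP1, PGM3, GNPNAT1, UGDH, GALNT7, CSGALNACT1 and EDEM3. They were taken by symbol from the 26336 genes counted, all 10 symbols were found, and all 10 passed the filter on low counts in every fit. RNA with poly(A) tails was sequenced from 4 established human prostate cell lines, giving 34 libraries in 17 groups. RWPE is labelled as non-tumorigenic prostate epithelium, LNCaP comes from a lymph node metastasis, and VCaP and MDAPCa2a come from bone metastases. Each line is a single line, so differences between lines do not average over donors.

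The culture surface was either plastic or a coating of amorphous calcium phosphate (ACP), a mineral precursor of bone. The media were of 3 kinds: the line's own control medium, medium whose serum had been stripped with charcoal and dextran to remove steroid hormones, and that stripped medium plus androgen, whose dose the labels give as 100 mM. Titles call the added compound DHT and the condition labels call it testosterone, so it is called androgen here. LNCaP and VCaP had 5 groups each: plastic with control medium, plastic with stripped serum, and ACP with control medium, stripped serum or stripped serum plus androgen. MDAPCa2a lacked ACP with control medium, and its plastic carried a protein coating that the ACP surface did not. RWPE was grown in a serum-free keratinocyte medium with growth factor and pituitary extract, on plastic and on ACP, and had an ACP group with androgen but none of stripped serum alone. The treatment protocol, written for all lines together, has stripped serum in the androgen medium, and the RWPE labels name no serum. The RWPE androgen comparison may therefore join added serum with androgen. There were 3 libraries of RWPE on ACP with androgen, a single one (1) of VCaP on plastic in stripped serum, and 2 in each other group. The plastic control groups are labelled as continuous culture and all others as day 4, although the treatment protocol gives plastic with control medium 4 days as well.

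Glycans are built on proteins and lipids in the endoplasmic reticulum and Golgi by glycosyltransferases, which add single sugars from activated nucleotide sugars. Secretory prostate epithelium makes large amounts of glycoprotein, including the kallikreins KLK3 and KLK2, and the androgen receptor, a hormone-activated transcription factor, controls much of that output. Among the 10 enzymes, GNPNAT1, PGM3 and UAP1 catalyse consecutive steps of the hexosamine pathway that ends in UDP-GlcNAc, and UGDH oxidises UDP-glucose to UDP-glucuronate. GALNT7 adds GalNAc in mucin-type O-glycosylation, GCNT1 builds the branched core 2 O-glycan, and ST6GALNAC1 caps GalNAc with sialic acid to form the sialyl-Tn antigen. ST6GAL1 adds alpha-2,6-linked sialic acid mainly to N-glycans, CSGALNACT1 starts chondroitin sulfate chains, and EDEM3 trims mannose from misfolded glycoproteins marked for degradation.

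Libraries held 15440141 to 44779246 counts, and levels are given as counts-per-million values (CPM) on library sizes scaled by the TMM method over all 34 libraries. The 6 basal epithelial markers summed to 3646 to 16604 CPM in RWPE and to at most 104.5 CPM in the other lines, and all 6 luminal markers were over 1 CPM in every group. The 4 androgen-induced check genes KLK3, KLK2, TMPRSS2 and FKBP5 all rose with androgen against stripped serum in LNCaP (median log2 change 1.86) and in VCaP (3.11). None of the 4 passed the test in MDAPCa2a (log2 changes of -0.46 to -0.14) or, against control medium, in RWPE. The plastic control libraries stood apart: 12 hepatocyte genes summed to 8.95 to 22.9 CPM in those of RWPE, LNCaP and MDAPCa2a, against 0.188 to 11.3 CPM in the other libraries of these lines. In VCaP the same 12 genes summed to 36.6 to 376.9 CPM over all groups. Outside plastic control, 2 of the 12 were over 1 CPM in each VCaP group and 4 to 6 had 0 reads. In VCaP plastic control 8 of the 12 were over 1 CPM and none had 0 reads. Nothing in the labels says that replicates were separate cultures, so the p-values measure the spread between these libraries, which may be technical.

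Androgen raised part of the set in LNCaP and VCaP and none of it in MDAPCa2a. On ACP, 5 of the 10 genes rose against stripped serum in LNCaP and none fell (CSGALNACT1, ST6GALNAC1, UAP1, EDEM3 and PGM3), where 7.73% of all genes tested were called. In VCaP 3 of 10 rose and none fell (CSGALNACT1, ST6GALNAC1 and UAP1), beside 17.5% of all genes. The median log2 change of the 10 genes was 0.98 in LNCaP and 0.71 in VCaP, against -0.01 and -0.03 for all genes tested. A call is an adjusted p below 0.05 in edgeR's quasi-likelihood test with Benjamini-Hochberg adjustment over all genes, and each log2 change is given with its standard error from that fit. In MDAPCa2a edgeR called 0 of 10, with a median of -0.27, and 0% of all genes. There, none of the 10 had an unadjusted p under 0.05, and DESeq2 also called 0. Leaving out 1 compared library moved the calls over all genes from 1133 to between 201 and 1771 in LNCaP, and from 2727 to between 766 and 2318 in VCaP.

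**Figure D1:**
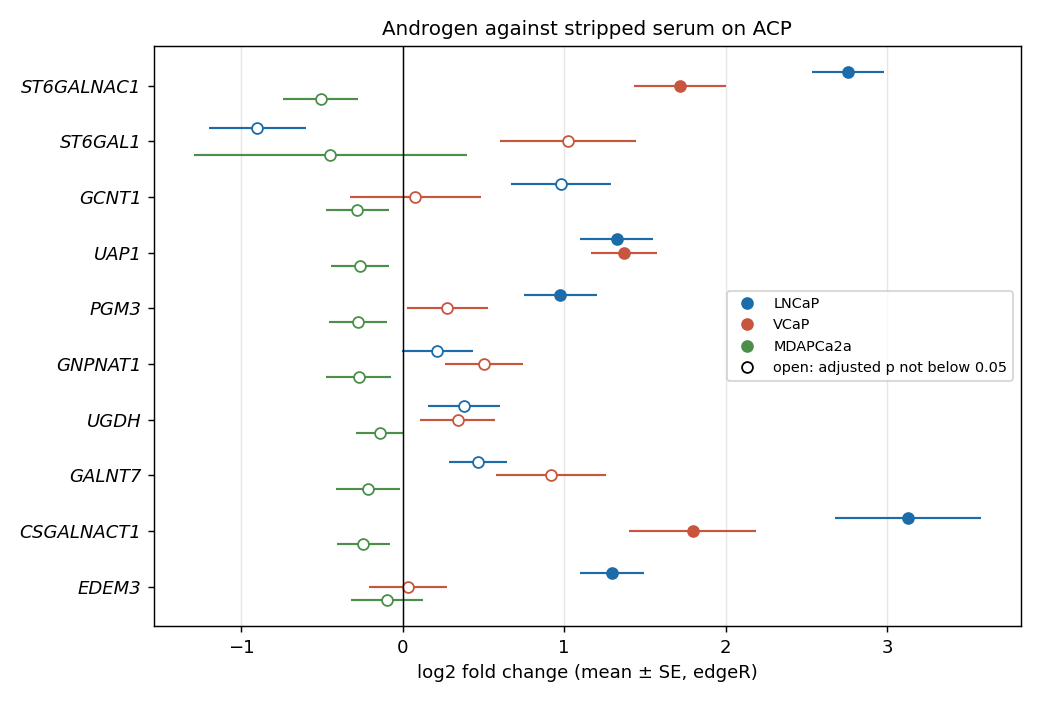
Log2 fold change (x axis) of each of the 10 genes (y axis) with androgen against stripped serum on ACP in LNCaP, VCaP and MDAPCa2a. Points are edgeR estimates, bars are standard errors, filled points passed an adjusted p of 0.05; ST6GALNAC1, UAP1 and CSGALNACT1 are filled in LNCaP and VCaP, and all 10 MDAPCa2a points lie between -0.51 and -0.10.

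Of the sialyltransferases in the set, ST6GALNAC1 had the wider range of levels over the lines. In LNCaP on ACP it stood at 9.04 and 10.2 CPM in stripped serum, 77.7 and 52.6 CPM with androgen, and 20.6 and 24.5 CPM in control medium. The androgen libraries lay above both other groups and the stripped libraries below both. The log2 change with androgen was 2.76 ± 0.22 against stripped serum (adjusted p = 9.18e-05, edgeR) and 1.51 ± 0.21 against control medium (adjusted p = 0.00193, edgeR). VCaP on ACP gave 25.9 and 40.8 CPM in stripped serum, 114 and 106 CPM with androgen, and 31.2 and 37.6 CPM in control medium. Stripped and control libraries overlapped there, and the androgen libraries were higher than both, by 1.71 ± 0.28 on the log2 scale against stripped serum (adjusted p = 0.00503, edgeR). Leaving out any one of the compared libraries kept the call against stripped serum in both lines, with log2 changes of 2.43 to 3.02 in LNCaP and 1.47 to 2.07 in VCaP.

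MDAPCa2a had the highest ST6GALNAC1 levels of the 4 lines without added androgen. Its libraries held 285 and 301 CPM on plastic in control medium, 428 and 431 CPM on plastic in stripped serum, 274 and 171 CPM on ACP in stripped serum, and 160 and 163 CPM on ACP with androgen. The ACP androgen libraries were the lowest of the line, at a log2 change of -0.51 ± 0.23 against stripped serum with a 95% interval of -1.04 to 0.02 (adjusted p = 0.968, edgeR). RWPE held between 2 and 31 reads of the gene per library, or 0.119 to 0.833 CPM. Its mean on plastic was 0.273% of the MDAPCa2a mean.

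ST6GAL1, the other sialyltransferase of the set, had opposite directions with androgen in LNCaP and VCaP. In LNCaP on ACP it had 9.59 and 12.4 CPM in stripped serum, 8.69 and 15.6 CPM in control medium, and 4.42 and 7.47 CPM with androgen. In VCaP on ACP it had 52.8 and 24.6 CPM in stripped serum, 26.8 and 19.4 CPM in control medium, and 87.9 and 69.7 CPM with androgen. Androgen libraries were thus the lowest of the ACP groups in LNCaP and the highest in VCaP, though the share of all genes separated in this way was not counted. Against stripped serum neither change was called, at -0.90 ± 0.30 in LNCaP (adjusted p = 0.0928, edgeR) and 1.02 ± 0.42 in VCaP (adjusted p = 0.116, edgeR), while DESeq2, and edgeR without the count filter, called both. Against control medium edgeR called both, at -1.05 ± 0.30 (adjusted p = 0.0376) and 1.78 ± 0.43 (adjusted p = 0.0412). The LNCaP call was lost without either of 2 of the 4 libraries compared, and the VCaP call without any one of its 4. The difference between the effects against stripped serum, VCaP minus LNCaP, was itself called at 1.90 ± 0.56 (adjusted p = 0.0297, edgeR). It lost the call without any one of 5 of the 8 libraries compared, with differences of 1.45 to 2.04 in those fits. In MDAPCa2a ST6GAL1 was at 0.162 to 0.609 CPM, or 3 to 22 reads per library, and its androgen interval of -2.36 to 1.47 leaves changes of either sign possible at this depth.

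ST6GAL1 is also a liver and B lymphocyte gene, so those markers were followed in the same libraries. The 12 hepatocyte genes summed to 317 to 377 CPM in VCaP on ACP in stripped serum and to 36.6 to 102 CPM with androgen, with 2 of 12 genes over 1 CPM in both groups. The 6 fibroblast genes summed to 40.9 to 162 CPM in the former and to 7.66 to 8.58 CPM in the latter. The 9 B and plasma cell genes summed to 5.30 to 7.84 CPM and to 11.99 to 13.7 CPM. In MDAPCa2a these 9 genes reached 1456 to 3595 CPM through 1 or 2 genes over 1 CPM, in the line with the least ST6GAL1. FGA, FGG and APOC3 were at 0 reads in both of these VCaP groups. The 6 basal genes summed to 19.6 to 37.6 CPM in VCaP on ACP in stripped serum and to 77.5 to 104.5 CPM with androgen. The part of these markers in the ST6GAL1 and other VCaP results was not tested. In bulk RNA, fewer cells of one kind and less RNA per cell cannot be told apart.

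The O-glycan enzymes GALNT7 and GCNT1 were not called with androgen in any line in the main edgeR fits. Those are fits of single lines with every library, the count filter and no replicate block. GALNT7 had 65.8 and 66.9 CPM in stripped serum and 100.5 and 83.6 CPM with androgen in LNCaP on ACP, a log2 change of 0.47 ± 0.18 (adjusted p = 0.141, edgeR). In VCaP it had 96.9 and 160 CPM in stripped serum and 260 and 226 CPM with androgen, or 0.92 ± 0.34 (adjusted p = 0.0871, edgeR), which DESeq2 called, as did edgeR with a replicate block, in the fit of all lines or without the count filter. The libraries of the 2 groups did not overlap in either line. With 2 libraries in each group such separation says little, and its share over all genes was not counted. GCNT1 had 9.88 and 13.9 CPM in stripped serum against 15.8 and 31.5 CPM with androgen in LNCaP, or 0.98 ± 0.31 (adjusted p = 0.0779, edgeR), called by DESeq2 and by edgeR without the count filter. In VCaP its 2 stripped libraries, at 25.0 and 62.9 CPM, spanned the androgen libraries at 57.3 and 35.3 CPM, a change of 0.08 ± 0.40. MDAPCa2a had 531 and 552 CPM of GALNT7 in stripped serum and 453 and 503 CPM with androgen, and 123 and 109 CPM of GCNT1 against 102 and 93.9 CPM. In both genes the androgen libraries were the lower ones there, without a call.

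Among the nucleotide sugar enzymes, UAP1, which makes UDP-GlcNAc, rose with androgen in LNCaP and in VCaP. LNCaP on ACP held 161 and 141 CPM in stripped serum, 460 and 299.6 CPM with androgen, and 497 and 353 CPM in control medium. The androgen and control libraries overlapped and both groups lay above stripped serum. In VCaP the values were 83.9 and 86.8 CPM in stripped serum, 228 and 213 CPM with androgen, and 120 and 103 CPM in control medium, so that androgen exceeded control medium as well. The log2 change against stripped serum was 1.32 ± 0.23 in LNCaP (adjusted p = 0.00677, edgeR) and 1.37 ± 0.20 in VCaP (adjusted p = 0.00328, edgeR). The difference between the lines was 0.03, with a 95% interval of -0.57 to 0.64. Against control medium the change was -0.19 ± 0.22 in LNCaP (adjusted p = 0.606, edgeR) and 0.99 ± 0.20 in VCaP (adjusted p = 0.0226, edgeR). Without either stripped replicate the LNCaP call was lost, at 1.42 (adjusted p = 0.0584, edgeR) without replicate 1 and 1.25 (adjusted p = 0.0767, edgeR) without replicate 2.

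PGM3, the step before UAP1, rose with androgen in LNCaP. It had 85.9 and 93.2 CPM in stripped serum and 218 and 135 CPM with androgen, a log2 change of 0.98 ± 0.22 (adjusted p = 0.0256, edgeR), and 102 and 94.2 CPM in control medium. Replicate 1 of the androgen group set much of that size: without it the change was 0.58 (adjusted p = 0.198, edgeR), and the call was also lost without either stripped library. In VCaP PGM3 went from 125 and 127 CPM to 178 and 127 CPM, a change of 0.28 ± 0.25 (adjusted p = 0.468, edgeR). The difference between the lines was -0.71, with an interval of -1.36 to -0.06 and an adjusted p of 0.155 in edgeR. GNPNAT1, the step before PGM3, changed by 0.22 ± 0.22 in LNCaP and 0.50 ± 0.24 in VCaP, and UGDH by 0.38 ± 0.22 and 0.34 ± 0.23, with no call. GNPNAT1 levels with androgen were 103 and 108 CPM in LNCaP and 199.9 and 227 CPM in VCaP, above stripped serum at 84.8 and 95.7 CPM and at 114 and 187 CPM. UGDH levels with androgen were 87.3 and 51.4 CPM in LNCaP and 201 and 194 CPM in VCaP, against 51.3 and 55.2 CPM and 169 and 142 CPM in stripped serum.

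CSGALNACT1, the chondroitin sulfate enzyme, had the largest androgen change of the 10 genes in LNCaP and in VCaP with all libraries in the fit, a rank that rested on androgen replicate 1 in each line. In LNCaP on ACP it stood at 5.60 and 5.27 CPM in stripped serum and 2.61 and 4.18 CPM in control medium. With androgen it reached 69.5 and 25.7 CPM, above all other LNCaP libraries but far apart from each other. The log2 change was 3.13 ± 0.45 against stripped serum (adjusted p = 0.00248, edgeR) and 2.22 without androgen replicate 1, which kept the call but lay below the 2.43 of ST6GALNAC1 in that fit. VCaP held 32.9 and 60.2 CPM in stripped serum, 20.8 and 40.3 CPM in control medium, and 210 and 113 CPM with androgen, or 1.79 ± 0.39 against stripped serum (adjusted p = 0.0147, edgeR). That call was lost without androgen replicate 1 (1.29, adjusted p = 0.0831, edgeR) or stripped replicate 1 (1.47, adjusted p = 0.0983, edgeR). In the former fit ST6GALNAC1 changed by 1.68 and UAP1 by 1.34. MDAPCa2a held 66.6 and 65.6 CPM in stripped serum and 56.2 and 58.4 CPM with androgen. RWPE had 7 to 33 reads per library, or 0.417 to 1.28 CPM.

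EDEM3, the mannosidase of glycoprotein degradation, differed between LNCaP and VCaP. LNCaP on ACP had 64.4 and 84.5 CPM in stripped serum, 112 and 112 CPM in control medium, and 204 and 163 CPM with androgen, the highest of all 17 groups. The log2 change against stripped serum was 1.30 ± 0.20 (adjusted p = 0.00367, edgeR). Without stripped replicate 1 it was 1.11 (adjusted p = 0.0584, edgeR). VCaP had 57.7 and 90.8 CPM in stripped serum and 83.6 and 68.6 CPM with androgen, overlapping ranges and a change of 0.04 ± 0.24. The difference, VCaP minus LNCaP, was -1.28 ± 0.33 (adjusted p = 0.0133, edgeR), and it was lost without any one of 4 of the 8 libraries compared, at -1.16 to -0.92.

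**Figure D2:**
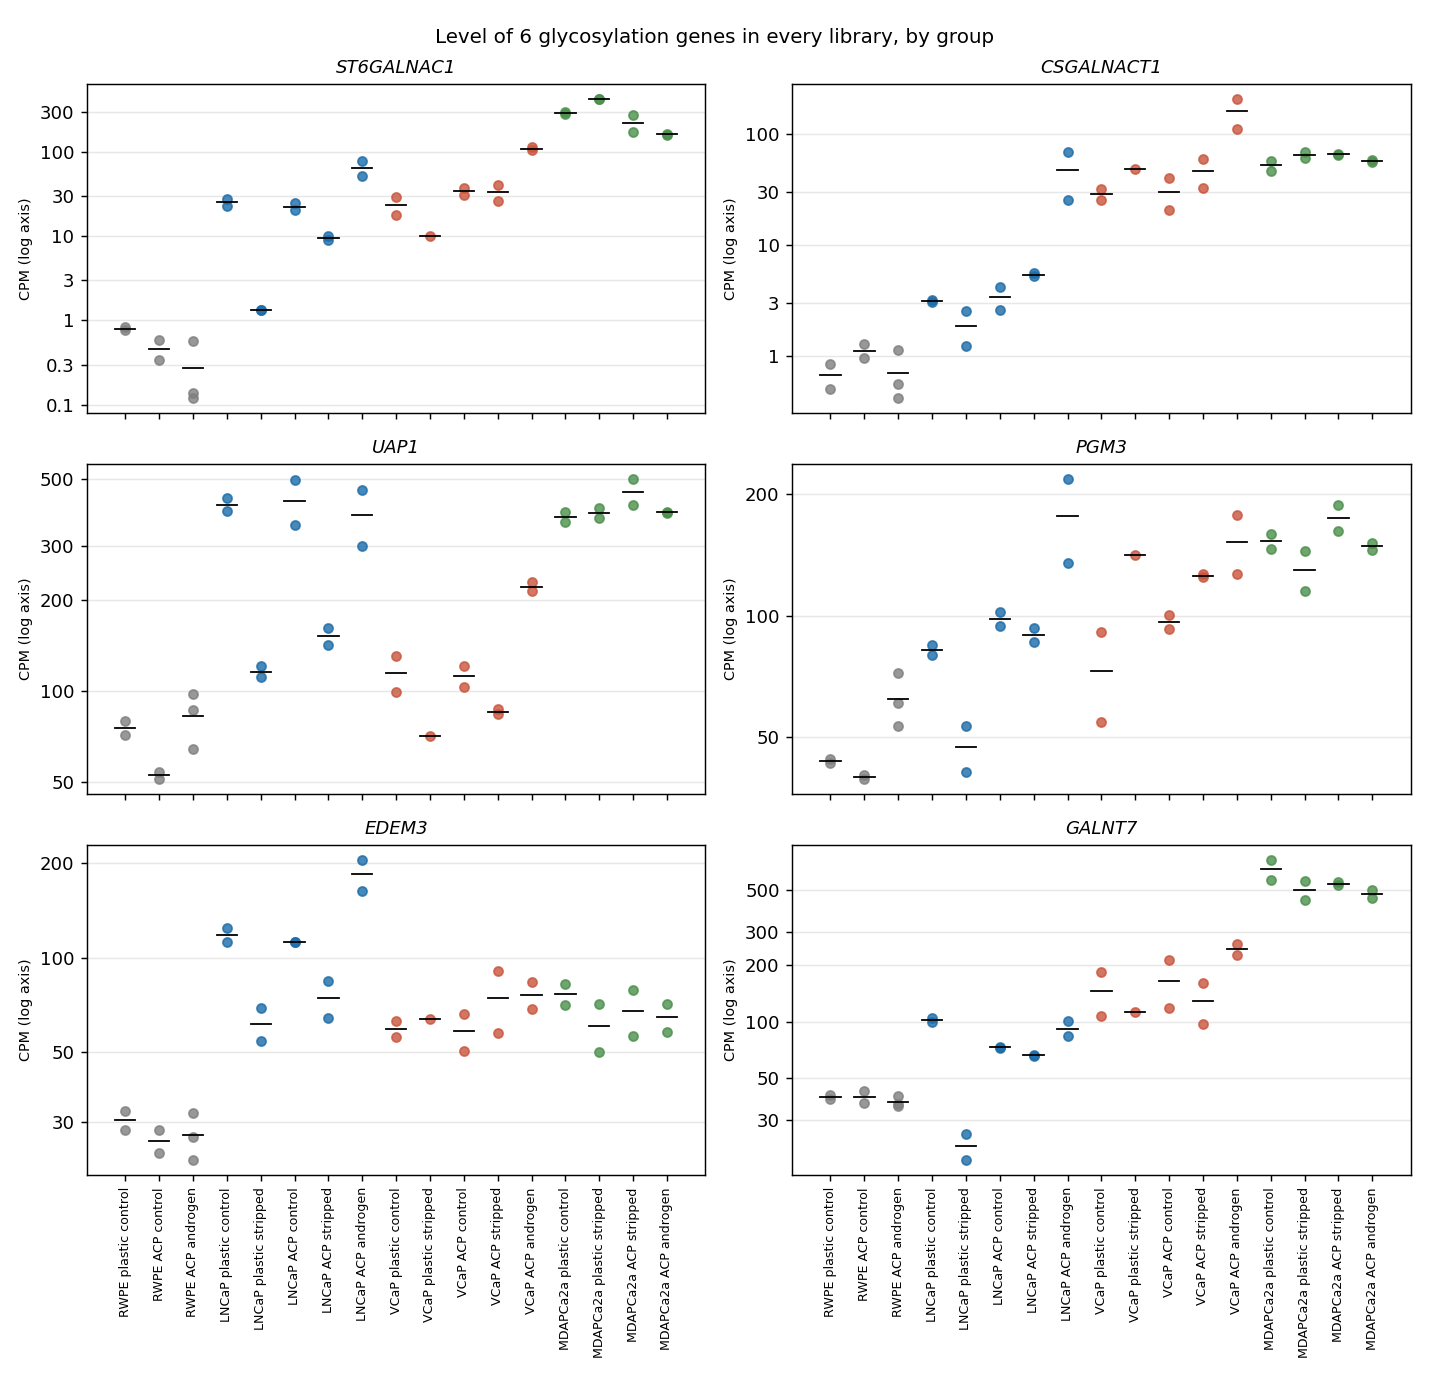
Level in CPM (log axis) of ST6GALNAC1, CSGALNACT1, UAP1, PGM3, EDEM3 and GALNT7 in each library (points), with group means (lines), for all 17 groups on the x axis. ST6GALNAC1 in LNCaP runs from 1.32 CPM on plastic in stripped serum to 77.7 CPM with androgen, and EDEM3 is highest in the LNCaP androgen group.

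The androgen effect was also tested directly between lines, with all 34 libraries in one fit. Between VCaP and LNCaP, 2 of 10 genes differed, ST6GAL1 and EDEM3, where 10.9% of all genes did. Between LNCaP and MDAPCa2a, 4 of 10 differed, all larger in LNCaP, beside 1.12% of all genes: CSGALNACT1 (3.33 ± 0.57, adjusted p = 0.00196, edgeR), ST6GALNAC1 (3.22 ± 0.39, adjusted p = 3.07e-05, edgeR), UAP1 (1.55 ± 0.29, adjusted p = 0.00532, edgeR) and EDEM3 (1.37 ± 0.33, adjusted p = 0.0372, edgeR). Between VCaP and MDAPCa2a, 3 of 10 differed, all larger in VCaP, beside 7.86% of all genes: ST6GALNAC1 (2.17 ± 0.38), CSGALNACT1 (1.99 ± 0.55) and UAP1 (1.59 ± 0.29). These comparisons share the libraries of each line and are not independent of each other. The adjusted p values of the last 3 were 0.00102, 0.026 and 0.0016 in edgeR, and CSGALNACT1 lost its call without any one of 5 libraries (1.47 to 2.03). Without any 1 of 6 libraries the EDEM3 difference between LNCaP and MDAPCa2a was not called, at 1.11 to 1.58, while its adjusted p was 0.0697 in edgeR without the plastic control libraries. Without LNCaP androgen replicate 1 the UAP1 difference was 1.22 (adjusted p = 0.0687, edgeR).

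Androgen was also compared with control medium, which in LNCaP and VCaP sets stripped serum plus androgen against whole serum. In LNCaP 4 of 10 rose (CSGALNACT1 by 3.79 ± 0.47, ST6GALNAC1, PGM3 by 0.82 ± 0.22 and EDEM3 by 0.69 ± 0.20) and ST6GAL1 fell, beside 15.1% of all genes. In VCaP 4 of 10 rose (CSGALNACT1 by 2.42 ± 0.40, ST6GAL1, ST6GALNAC1 by 1.69 ± 0.28 and UAP1), beside 5.99% of all genes. Among the check genes, all of which rose against stripped serum, KLK2 was called against control medium in LNCaP, and KLK3, TMPRSS2 and FKBP5 in VCaP. In LNCaP the calls of PGM3, EDEM3 and ST6GAL1 were lost when the plastic control libraries were left out of the fit, at adjusted p values of 0.0507, 0.0622 and 0.0613 in edgeR, and each was lost without 2 or 3 of the 4 single libraries. In VCaP, leaving out 1 library left 0 to 2 of the 4 calls: ST6GAL1 and UAP1 lost theirs without any one of the 4 libraries (1.54 to 2.06 and 0.86 to 1.14), ST6GALNAC1 without 3 and CSGALNACT1 without 2.

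In RWPE, where the 4 check genes were not called, 3 of the 10 genes were called with androgen against control medium, all higher, beside 19.1% of all genes. GNPNAT1 had 99.0 and 125 CPM on ACP in control medium and 255, 218 and 190 CPM with androgen, a log2 change of 1.00 ± 0.20 (adjusted p = 0.0175, edgeR). PGM3 had 39.4 and 40.4 CPM against 72.3, 60.6 and 53.1 CPM, or 0.66 ± 0.18 (adjusted p = 0.0304, edgeR). UAP1 had 53.8 and 51.1 CPM against 97.4, 86.2 and 64.0 CPM, or 0.68 ± 0.20 (adjusted p = 0.041, edgeR). In all 3 genes, named because they were called, every androgen library lay above both control libraries. The share of all genes separated in this way was not counted. The GNPNAT1 mean with androgen was the highest of the 17 groups. UGDH changed by 0.10 ± 0.15, with a 95% interval of -0.23 to 0.43. The basal markers summed to 13307 and 16604 CPM in the control libraries and to 3646 to 11683 CPM in the androgen libraries, and their part was not tested. Without the plastic control libraries in the fit only GNPNAT1 was called, and without ACP control replicate 1 none was, at 0.77 for GNPNAT1 (adjusted p = 0.275, edgeR), 0.58 for PGM3 and 0.65 for UAP1. Without ACP control replicate 2 none was called either (GNPNAT1 adjusted p = 0.0913, edgeR), and PGM3 and UAP1 were also lost without androgen replicate 1 or 2. Over all genes 2730 were called with every library, 0 without either ACP control library, and 1066 to 6102 without 1 androgen library.

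Serum stripping on plastic in LNCaP lowered 5 of the 10 genes and raised none, beside 9.45% of all genes called. ST6GALNAC1 went from 27.9 and 22.7 CPM in control medium to 1.34 and 1.32 CPM, a log2 change of -4.21 ± 0.26 (adjusted p = 9.37e-06, edgeR). GALNT7 went from 105 and 99.3 CPM to 18.5 and 25.3 CPM, or -2.16 ± 0.19 (adjusted p = 0.000124, edgeR), and UAP1 from 432 and 392 CPM to 111 and 120.2 CPM, or -1.78 ± 0.23 (adjusted p = 0.00106, edgeR). None of these pairs of groups overlapped, and the share of all genes separated in this way was not counted. EDEM3 fell by 0.88 ± 0.20 (adjusted p = 0.0191, edgeR) and GNPNAT1 by 0.80 ± 0.22 (adjusted p = 0.0435, edgeR), and both calls were lost without stripped replicate 1 (-0.67 and -0.47) or without either control library. ST6GAL1, at 15.3 and 13.4 CPM in stripped serum and 10.7 and 9.91 CPM in control medium, went the other way without a call (0.53 ± 0.29). The reference here is the plastic control group, whose hepatocyte sum was 15.6 to 22.9 CPM against 2.23 to 2.91 CPM in stripped serum, and whose culture time differs by the labels but not by the protocol. These cannot be told apart from serum in this comparison.

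On ACP 2 of 10 genes were lower in stripped serum than in control medium in LNCaP, beside 5.37% of all genes called. These were UAP1, lower by 1.51 ± 0.23 (adjusted p = 0.00362, edgeR), and ST6GALNAC1, lower by 1.25 ± 0.22 (adjusted p = 0.00803, edgeR). DESeq2 called 5, adding GNPNAT1, GCNT1 and EDEM3, at edgeR log2 changes of -0.83, -0.92 and -0.61. Without stripped replicate 2 neither was called, with adjusted p values of 0.0526 for both in edgeR, and without stripped replicate 1 ST6GALNAC1 was not (-1.16, adjusted p = 0.0932, edgeR). GALNT7 was not called, at 73.7 and 72.7 CPM in control medium and 65.8 and 66.9 CPM in stripped serum (-0.16 ± 0.18, interval -0.56 to 0.24). A test of surface by serum in LNCaP, chosen after the data had been seen, called 2 of 10 genes, beside 0.307% of all genes. The drop was larger on plastic for ST6GALNAC1 by 2.96 ± 0.33 (adjusted p = 0.00312, edgeR) and for GALNT7 by 2.00 ± 0.26 (adjusted p = 0.00611, edgeR). For UAP1 the difference was 0.27, with an interval of -0.43 to 0.96. The plastic side of this test rests on the plastic control group, whose hepatocyte signal and labelled culture time cannot be told apart from serum and surface here. Without plastic stripped replicate 1 the ST6GALNAC1 value was 2.90 (adjusted p = 0.0666, edgeR).

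In stripped serum LNCaP also differed by surface: 3 of 10 genes were higher on ACP than on plastic and none lower, beside 6.12% of all genes. ST6GALNAC1 was at 9.04 and 10.2 CPM on ACP and 1.34 and 1.32 CPM on plastic, or 2.89 ± 0.26 on the log2 scale (adjusted p = 0.000253, edgeR). GALNT7 was higher by 1.62 ± 0.19 (adjusted p = 0.00114, edgeR). PGM3 had 85.9 and 93.2 CPM against 41.1 and 53.2 CPM, or 0.95 ± 0.23 (adjusted p = 0.035, edgeR). The PGM3 call was lost without plastic stripped replicate 1 (0.70) and without either ACP library, and without the plastic control libraries in the fit (adjusted p = 0.0743, edgeR). Of the check genes, KLK3 and KLK2 were also higher on ACP. In control medium, in contrast, 0 of 10 genes differed between ACP and plastic in LNCaP by edgeR, beside 12.6% of all genes, with no unadjusted p under 0.05 and no call by DESeq2. ST6GALNAC1 there differed by -0.07, with an interval of -0.53 to 0.39. The plastic libraries of that comparison are the plastic control group, so the same limit holds.

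**Figure D3:**
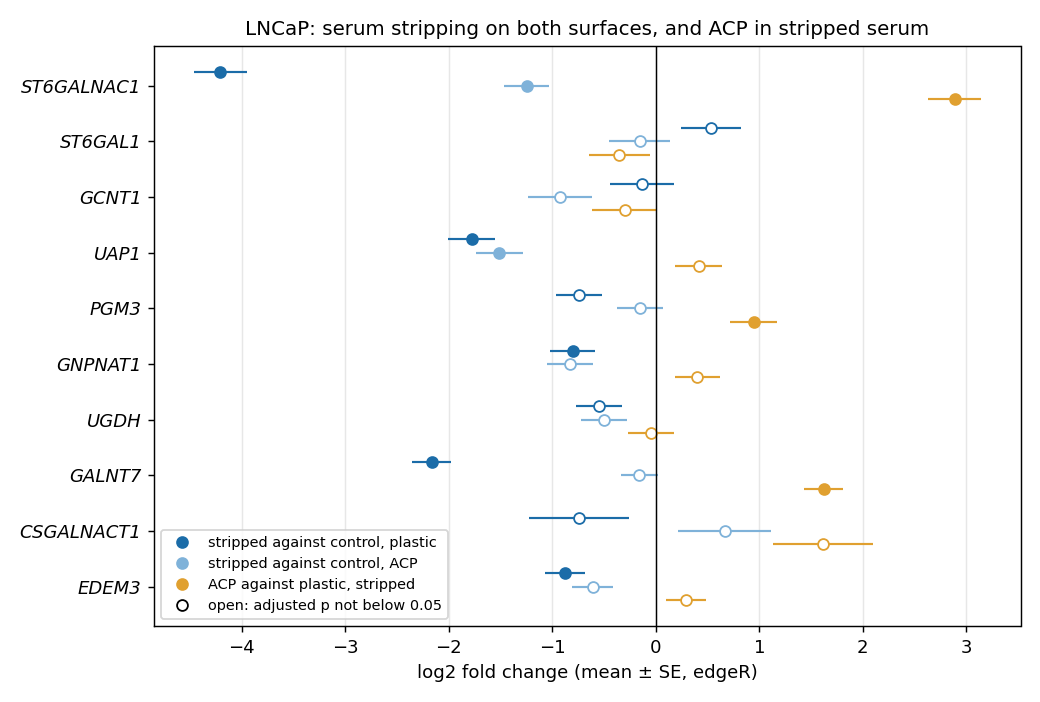
Log2 fold change (x axis) of the 10 genes (y axis) in LNCaP for stripped serum against control medium on plastic and on ACP, and for ACP against plastic in stripped serum. Points are edgeR estimates with standard errors, filled where the adjusted p was below 0.05; ST6GALNAC1 and GALNT7 fell by 4.21 and 2.16 on plastic and were higher on ACP by 2.89 and 1.62.

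In the other lines the same comparisons gave no call in edgeR. Stripped serum against control medium called 0 of 10 on ACP in VCaP, beside 0.820% of all genes, no member had an unadjusted p under 0.05, and DESeq2 called 0. On plastic it called 0 of 10 in VCaP, beside 0.890% of all genes, where 4 had an unadjusted p under 0.05 and DESeq2 called ST6GALNAC1 (-1.14 ± 0.37 in edgeR) and PGM3 (1.03 ± 0.30). On plastic in MDAPCa2a it called 0 of 10, beside 1.58% of all genes, with 1 unadjusted p under 0.05 and 0 calls by DESeq2. ACP against plastic in stripped serum called 0 of 10 in VCaP, beside 0% of all genes, with 1 unadjusted p under 0.05. That was ST6GALNAC1 at 1.73 ± 0.38 (25.9 and 40.8 CPM against 10.2 CPM in the single plastic library), which DESeq2 called. In MDAPCa2a it called 0 of 10, beside 0.00734% of all genes, with 3 unadjusted p under 0.05. ST6GALNAC1 there was lower on ACP by 0.84 ± 0.23 (adjusted p = 0.227, edgeR), and DESeq2 called it. In control medium ACP against plastic called 0 of 10 in RWPE, beside 4.16% of all genes, with 2 unadjusted p under 0.05 (UGDH at -0.57 ± 0.16, called by DESeq2, and UAP1 at -0.49 ± 0.22). In VCaP it called 0 of 10, beside 0.0448% of all genes, with 1 unadjusted p under 0.05 and 0 calls by DESeq2.

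The surface effect on ST6GALNAC1 in stripped serum thus had opposite signs in LNCaP and MDAPCa2a. A test of that difference, also chosen after the data had been seen, called 1 of 10 genes, beside 0.358% of all genes: ST6GALNAC1, by 3.78 ± 0.42 (adjusted p = 2.23e-05, edgeR). Leaving out each of the 8 libraries in turn kept this call. The MDAPCa2a plastic surface carried a protein coating, which cannot be told apart from the absence of ACP.

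On plastic in control medium the cancer lines held more of most of these transcripts than RWPE. RWPE was in its serum-free medium and each cancer line in its own control medium, so line and medium cannot be told apart here. These are the plastic control libraries that stood apart above, and the plastic of MDAPCa2a carried a protein coating. LNCaP had 7 of 10 higher and none lower, beside 57.4% of all genes called (29.5% higher). VCaP had 9 of 10 higher, beside 62.4% (32.1% higher). MDAPCa2a had 8 higher and 1 lower, beside 56.7% (28.3% higher and 28.4% lower). The median log2 difference of the set was 1.15 for LNCaP, 1.16 for VCaP and 2.12 for MDAPCa2a, against 0.01, 0.04 and -0.0026 for all genes. Mean ST6GALNAC1 was 0.801 CPM for RWPE, 25.3 for LNCaP, 23.5 for VCaP and 293 for MDAPCa2a. CSGALNACT1 followed with 0.678, 3.14, 28.8 and 52.5 CPM, and GALNT7 with 39.8, 102, 145 and 644 CPM. In each of these 3 genes RWPE was lowest and MDAPCa2a highest.

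PGM3, GCNT1 and GNPNAT1 also had their lowest mean in RWPE and their highest in MDAPCa2a, whereas UAP1, EDEM3, UGDH and ST6GAL1 did not have both. UAP1 was at 75.4 CPM for RWPE, 412 for LNCaP, 114 for VCaP and 374 for MDAPCa2a, and EDEM3 at 30.5, 118, 59.5 and 76.6 CPM, with LNCaP highest in both. UGDH was highest in VCaP, at 47.2, 84.7, 210.5 and 178 CPM, though the VCaP libraries (257 and 164 CPM) spanned those of MDAPCa2a (184 and 172 CPM). ST6GAL1 ran from 13.1 CPM in RWPE and 10.3 in LNCaP to 27.0 in VCaP and 0.440 in MDAPCa2a, a log2 difference of -4.86 ± 0.51 from RWPE (adjusted p = 1.42e-08, edgeR). PGM3 had means of 43.7, 82.2, 72.8 and 153 CPM, and GCNT1 of 13.3, 17.03, 31.4 and 84.2 CPM. GNPNAT1 was called in none of the 3 lines, at 122, 126, 135 and 163 CPM, with intervals of -0.40 to 0.52 for LNCaP, -0.30 to 0.62 for VCaP and -0.04 to 0.88 for MDAPCa2a. The VCaP calls of ST6GAL1 and PGM3 rested on single libraries: without VCaP replicate 1 the former was 0.38 (adjusted p = 0.474, edgeR), and without VCaP replicate 2 the latter was 0.34 (adjusted p = 0.249, edgeR). The VCaP call of UAP1 (0.62 ± 0.21) was lost without VCaP replicate 1 (0.41) or RWPE replicate 1 (0.50), and that of ST6GAL1 without either RWPE library.

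**Figure D4:**
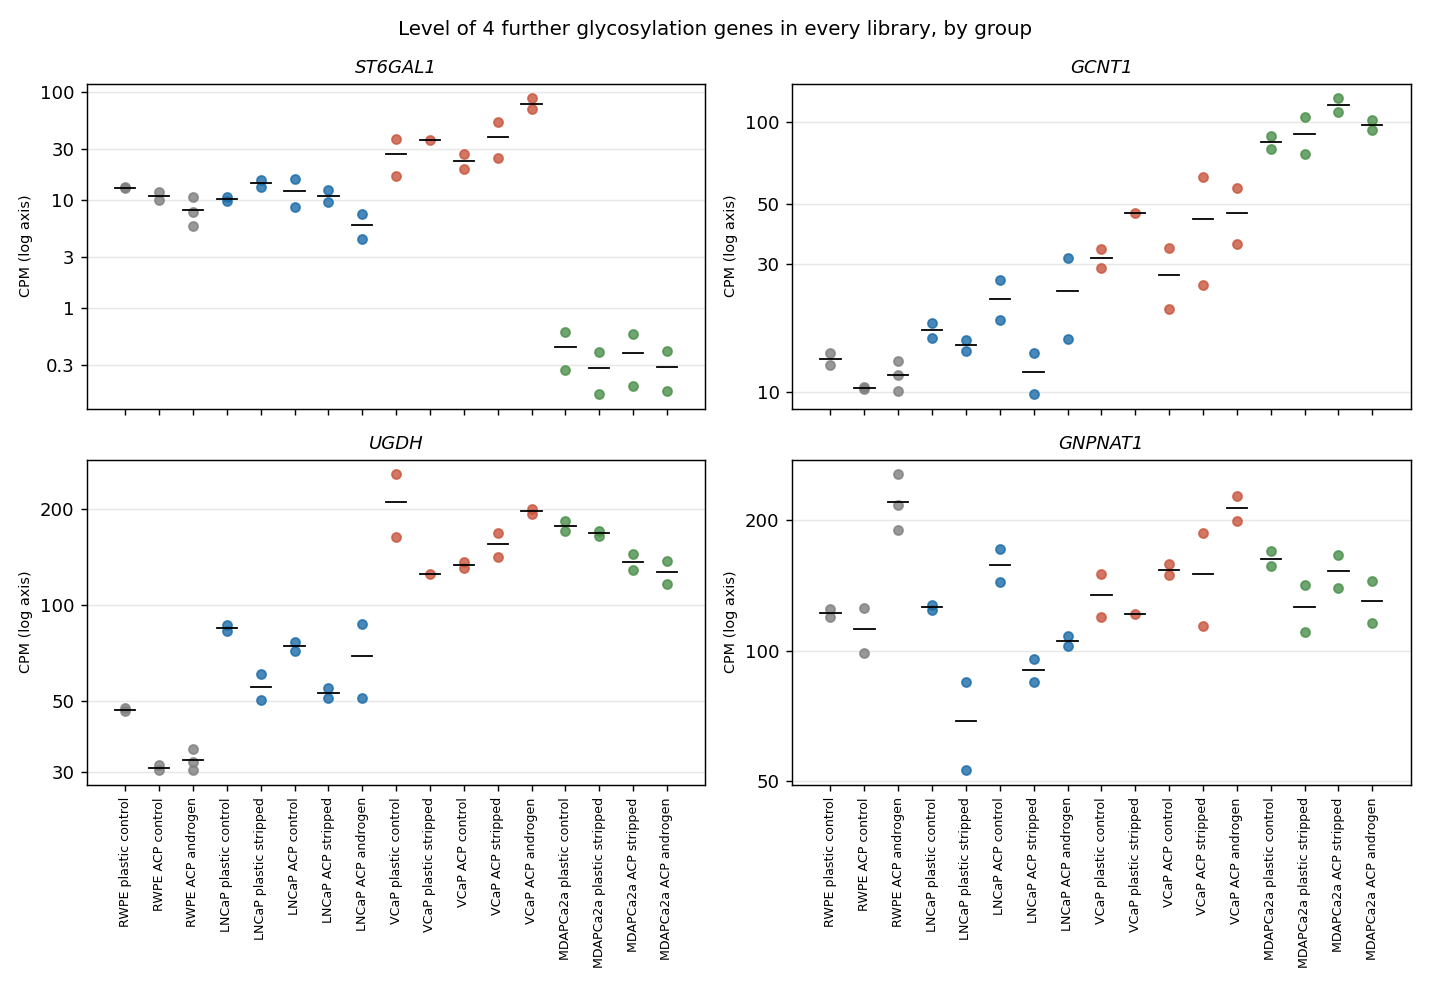
Level in CPM (log axis) of ST6GAL1, GCNT1, UGDH and GNPNAT1 in each library (points), with group means (lines), for all 17 groups on the x axis. ST6GAL1 lies at 0.162 to 0.609 CPM in every MDAPCa2a library and reaches 69.7 and 87.9 CPM in the VCaP androgen group.

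Promoters of 8 members were taken from RefSeq windows of the GRCh38.p14 build. They gave 14 windows of 300 bases, from 250 bases before to 50 after a start site. No window of ST6GALNAC1 or CSGALNACT1, the genes with the largest androgen changes in LNCaP, was included in the search. Their absence is therefore not a result about their promoters. Windows of UAP1 overlapped in part. The counts themselves were made on hg19, so no position is carried over from them. The 3 stretches printed here are the 250 bases before the start site, shown because the expression of these genes rose together with androgen in LNCaP. They are from UAP1 (chr1:162561281-162561530, plus strand, the most upstream of 3 windows), PGM3 (chr6:83193901-83194150, minus strand, the more upstream of 2 windows) and EDEM3 (chr1:184754859-184755108, minus strand). Capitals mark the CCAAT box, read on either strand.
UAP1: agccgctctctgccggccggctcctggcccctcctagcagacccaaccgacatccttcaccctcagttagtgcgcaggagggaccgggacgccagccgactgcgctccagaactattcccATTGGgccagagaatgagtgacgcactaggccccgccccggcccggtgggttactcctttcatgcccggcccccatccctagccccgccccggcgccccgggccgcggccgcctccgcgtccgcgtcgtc
PGM3: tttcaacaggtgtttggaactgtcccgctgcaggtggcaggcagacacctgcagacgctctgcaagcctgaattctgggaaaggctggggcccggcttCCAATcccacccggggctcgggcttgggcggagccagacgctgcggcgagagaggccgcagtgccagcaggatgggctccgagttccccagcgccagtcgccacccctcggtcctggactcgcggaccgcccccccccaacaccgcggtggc
EDEM3: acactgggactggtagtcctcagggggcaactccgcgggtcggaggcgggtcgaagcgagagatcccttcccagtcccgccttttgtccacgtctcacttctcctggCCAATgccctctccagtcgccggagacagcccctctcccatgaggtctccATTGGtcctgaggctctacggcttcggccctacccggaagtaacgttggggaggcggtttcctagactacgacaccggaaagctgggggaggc

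The androgen receptor half-site AGAACA was searched on both strands and was in 0 of the 14 windows, against 14.79% of all 35116 promoter windows. None of the 14 windows is from ST6GALNAC1 or CSGALNACT1, so the search says nothing about these genes. The inverted repeat of AGAACA and TGTTCT with a gap between them, the E-box CACGTG and the TATA box TATAAA were in none of the 14 either, against 0.002848%, 7.256% and 11.53% of all windows. CCAAT was in 6 of the 14 windows (42.86%), against 34.61% of all windows. These were 1 of 3 windows of UAP1, both of PGM3, 1 of 4 of GCNT1 and the single windows of EDEM3 and GALNT7. In the stretches printed it began 130 bases before the start site in UAP1, 152 before it in PGM3, and 143 and 93 before it in EDEM3, and in the other PGM3 window it began 50 bases before the start site. A match is a description of letters, and binding of any factor was not measured here.

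Outside the 10 genes, 154 further genes on 6 lists of glycosylation enzymes were followed. In LNCaP with androgen against stripped serum 6 of 126 tested rose and 1 fell, and in VCaP 22 of 134 rose and 8 fell. These are 5.56% and 22.4% of the genes tested, near the 7.73% and 17.5% of all genes. Of all genes, 3.77% rose and 3.96% fell in LNCaP, and 8.67% rose and 8.80% fell in VCaP, which is the background for the counts of each list. Of the nucleotide sugar list 9 of 35 rose in VCaP and none fell, with a median log2 change of 0.30. The largest rises were GMPPB, which makes GDP-mannose (1.62 ± 0.22, adjusted p = 0.00253, edgeR), NANS, the sialic acid synthase (1.196 ± 0.20), and GMPPA (1.03 ± 0.22). In LNCaP 2 of 34 rose, the nucleotide sugar transporter SLC35B4 (1.10 ± 0.14) and PGM2 (0.80 ± 0.22). SLC35B4 was the one gene of this list called in both lines.

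Of the other sialyltransferases, 2 of 14 rose in VCaP, ST3GAL1 (10.0 to 66.3 CPM, log2 change 2.73 ± 0.29, adjusted p = 0.000975, edgeR) and the scarce ST3GAL6 (0.259 to 1.17 CPM). Another 2 fell, ST6GALNAC5 (19.7 to 3.28 CPM, -2.58 ± 0.40) and ST6GAL2 (2.20 to 0.108 CPM). In LNCaP 1 of 11 changed, ST6GALNAC5, which fell from 2.68 to 0.198 CPM (-3.73 ± 0.52, adjusted p = 0.00192, edgeR). ST6GALNAC5 and ST6GALNAC1, members of the same enzyme family, thus moved in opposite directions with androgen in both lines.

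Among genes of glycosaminoglycan synthesis, the pathway of CSGALNACT1, 2 of 30 rose in LNCaP (CHPF by 1.05 ± 0.21 and CSGALNACT2 by 0.78 ± 0.20). In VCaP 2 of 31 rose (CHSY1 by 1.12 ± 0.21 and HS6ST1 by 0.88 ± 0.20) and 4 fell, DSEL by 3.25 ± 0.26 (198.5 to 20.9 CPM), HS3ST1 by 1.71 ± 0.51 and UST by 1.65 ± 0.35 among them. CHPF, CHSY1 and CSGALNACT2 act in chondroitin chain synthesis, as CSGALNACT1 does. In mucin-type O-glycosylation 0 of 14 changed in LNCaP by edgeR, with 4 unadjusted p under 0.05, and 2 of 17 rose in VCaP, GALNT18 by 1.63 ± 0.28 and GCNT3 by 3.36 ± 0.93.

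Of the N-glycan branching genes 1 of 17 rose in LNCaP, the galactosyltransferase B4GALT1 (0.61 ± 0.17). In VCaP 4 of 17 rose, B3GNT2 (1.97 ± 0.41), B4GALT1 (1.72 ± 0.19) and MGAT2 (0.70 ± 0.20) among them, and MGAT3 fell by 1.85 ± 0.43. EDEM1, a close relative of EDEM3, rose in LNCaP (0.66 ± 0.16, adjusted p = 0.031, edgeR), the only one of 20 in the list of trimming and degradation called there. EDEM1 rose in VCaP too (1.198 ± 0.19, adjusted p = 0.00384, edgeR), where EDEM3 changed by 0.04, together with DERL2 (0.86 ± 0.22) and SYVN1 (0.84 ± 0.23), while MAN1A1 fell by 1.62 ± 0.43. In MDAPCa2a 0 of 123 tested genes on the 6 lists passed the test with androgen in edgeR, with an unadjusted p under 0.05 for 1 gene each of the glycosaminoglycan and the degradation list.

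**Figure D5:**
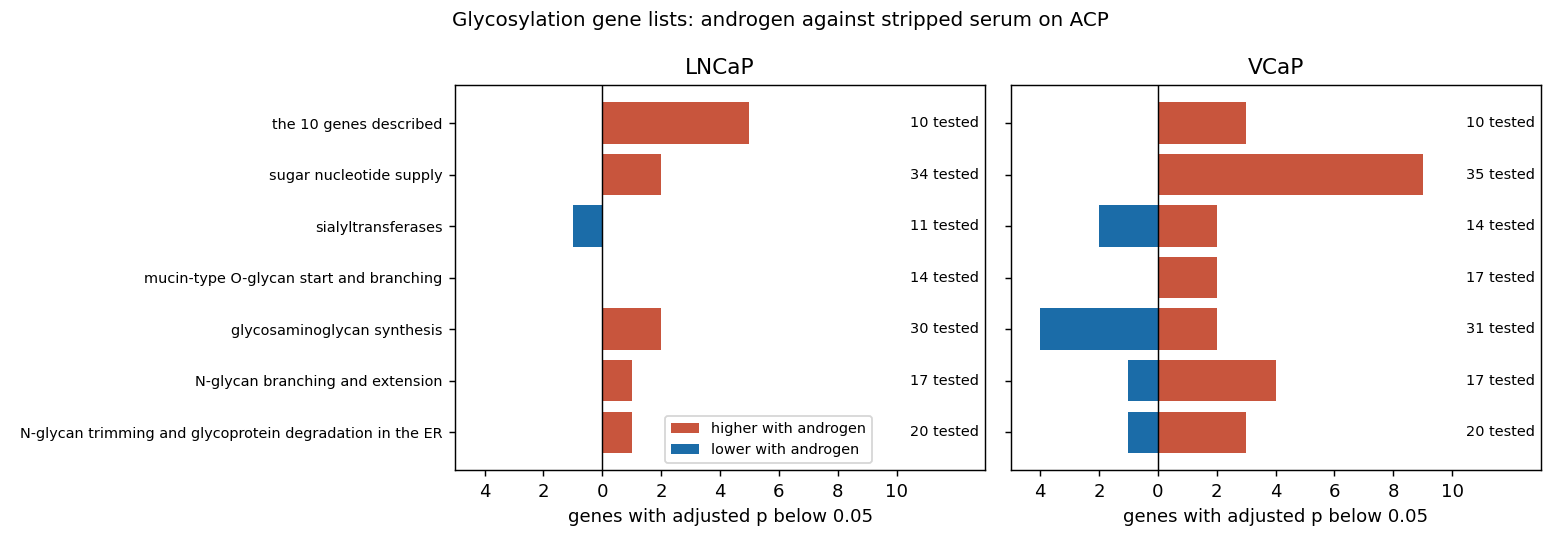
Number of genes with an adjusted p below 0.05 (x axis), higher (to the right of 0) or lower (to the left) with androgen against stripped serum on ACP, for the 10 genes and 6 further lists without them (y axis), in LNCaP (left panel) and VCaP (right panel). The number tested stands at the right of each bar; the nucleotide sugar list has 2 higher of 34 in LNCaP and 9 higher of 35 in VCaP.

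The 10 genes were also compared with each other over the 21 libraries of LNCaP, VCaP and MDAPCa2a outside the plastic control groups, on log2 CPM centred within each line. ST6GALNAC1 and GALNT7 were the pair most alike (Pearson r = 0.89), followed by PGM3 and CSGALNACT1 (0.86). ST6GAL1 stood apart, with r of -0.28 to 0.24 to the other 9. Among 16500 genes, the one most like each member was STK39 for ST6GALNAC1 (0.94), MKRN1 for ST6GAL1 (0.90), AVL9 for GCNT1 (0.82), MPC2 for UAP1 (0.94) and PLA2G12A for PGM3 (0.93). For the others it was SRP72 for GNPNAT1 (0.95), KLF5 for UGDH (0.82), TRPM8 for GALNT7 (0.91), PDLIM5 for CSGALNACT1 (0.93) and VPS37A for EDEM3 (0.90). The libraries share groups and lines, so these values describe these samples and carry no test.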

How the data were processed

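RNA selected for poly(A) tails was sequenced from 34 libraries of 4 prostate cell lines. Reads were aligned with STAR and counted with HTSeq on hg19, per the submitters' processing notes; annotation and strand setting: not given in the sources used here. The values are the deposited raw counts per gene. The 10 genes and all lists were chosen with earlier results of these data known, and 2 comparisons (surface effect between LNCaP and MDAPCa2a, serum effect between surfaces in LNCaP) were added after seeing the data.

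Counts were tested in R 4.3.3 with edgeR 4.0.16 (TMM; filterByExpr, minimum count 10; quasi-likelihood F test, Benjamini-Hochberg adjustment over all genes tested, threshold 0.05). Comparisons within a line used a fit of that line, and comparisons between lines a fit of all 34 libraries. Each standard error was back-calculated from the F test, as the size of the log2 change over the root of F, and the 95% intervals follow from them with edgeR's total degrees of freedom. The code was tested on simulated data. Alternatives were RLE scaling, no count filter, a log2 change of at least 1, DESeq2 1.42.0, a replicate block, a fit of all lines, the plastic control libraries left out, and each library left out. Named genes were the 10 members, the largest rises and falls (up to 3 each) of each list among called genes whose higher group averaged 1 CPM or more, and the gene most correlated with each member.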

Additional observations from a re-analysis of the deposited data

Results flagged for a closer look

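Tests of a difference between groups gave 12 results for the 10 genes, with p adjusted over all genes in edgeR. The androgen effect, VCaP minus LNCaP, was -1.28 for EDEM3 (adjusted p = 0.0133) and 1.90 for ST6GAL1 (0.0297). LNCaP minus MDAPCa2a, it was 3.33 for CSGALNACT1 (0.00196), 1.37 for EDEM3 (0.0372), 3.22 for ST6GALNAC1 (3.07e-05) and 1.55 for UAP1 (0.00532). VCaP minus MDAPCa2a, it was 1.99 for CSGALNACT1 (0.026), 2.17 for ST6GALNAC1 (0.00102) and 1.59 for UAP1 (0.0016). In the comparisons added after seeing the data, the surface effect in stripped serum, LNCaP minus MDAPCa2a, was 3.78 for ST6GALNAC1 (2.23e-05). The serum effect in LNCaP, ACP minus plastic, was 2.00 for GALNT7 (0.00611) and 2.96 for ST6GALNAC1 (0.00312).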

How the results depend on the processing

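No change of the 10 genes called in the main fits reversed direction under the alternatives run. Uncalled changes were not followed for direction. Counts are of the 10 genes, with calls over all genes in parentheses. With androgen against stripped serum in VCaP 3 (2727) were called, and 5 with no count filter (3597), DESeq2 (3439) or a replicate block (2630). For stripped serum on ACP in LNCaP it was 2 (787), and 5 with no count filter (1732) or DESeq2 (1331). For androgen against control medium in LNCaP it was 5 (2218), 3 with a log2 change of at least 1 (1058), 2 without the plastic control libraries (1548) and 3 in the fit of all lines (1594). In RWPE it was 3 (2730), and 0 (849) and 1 (1402) under the first 2 of these. For stripping on plastic it was 5 (1385) in LNCaP and 3 (763) with a log2 change of at least 1, and 0 (139) in VCaP and 2 with no count filter (1231), DESeq2 (1169) or the fit of all lines (1561). For ACP against plastic in stripped serum it was 0 (0) in VCaP and 1 (3) with DESeq2, and 0 (1) in MDAPCa2a and 1 with no count filter (320) or DESeq2 (213). For ACP against plastic in control medium in RWPE it was 0 (595), 1 with DESeq2 (1401) and 2 with the replicate block (2661). The added surface test between lines gave 1 (62), and 2 with no count filter (184), DESeq2 (212) or the replicate block (65). The cause was not tested. Libraries were not paired by replicate number in the main fits. Correlations of same-numbered deviations ran from -0.34 to 0.42, the highest for androgen against stripped serum in MDAPCa2a. The block moved no other count of the 10 genes by over 1.5 times. Over all genes it moved further counts, among them 2730 to 5741 for androgen against control medium in RWPE and 128 to 340 for stripping on ACP in VCaP.

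Leaving out 1 library gave 2 to 7 calls (201 to 1771 over all genes) with androgen against stripped serum in LNCaP, 2 to 4 (766 to 2318) in VCaP and 0 to 0 (0 to 3) in MDAPCa2a. Against control medium it gave 2 to 5 (701 to 2555) in LNCaP, 0 to 2 (87 to 259) in VCaP and 0 to 3 (0 to 6102) in RWPE. Stripping gave 0 to 2 (191 to 771) on ACP and 3 to 6 (310 to 1444) on plastic in LNCaP, and 0 to 0 in VCaP (0 to 309 on ACP, 90 to 220 on plastic) and in MDAPCa2a (0 to 7). ACP against plastic in stripped serum gave 2 to 5 (66 to 1278) in LNCaP, 0 to 0 (0 to 0) in VCaP and 0 to 1 (0 to 303) in MDAPCa2a. In control medium it gave 0 to 0 in RWPE (4 to 106), LNCaP (0 to 2385) and VCaP (1 to 19). Against RWPE it gave 7 to 7 (8303 to 8459) in LNCaP, 7 to 8 (9297 to 9780) in VCaP and 9 to 9 (8234 to 8320) in MDAPCa2a. Differences in androgen effect gave 0 to 5 (1013 to 2023) for VCaP minus LNCaP and 2 to 5 for LNCaP (77 to 598) and VCaP (646 to 1685) minus MDAPCa2a, and the added tests 1 to 1 (26 to 73) between lines and 1 to 2 (11 to 148) between surfaces. With 2 libraries in most groups, a lone library is assumed to vary like the other groups. Low counts limit ST6GAL1 in MDAPCa2a and ST6GALNAC1 and CSGALNACT1 in RWPE.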
